A study of Homo sapiens with 24 samples.

Results

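Undifferentiated human embryonic stem cells (hESCs) that carried an shRNA against RUNX1 were compared with hESCs that carried a non-silencing shRNA, before any differentiation was started (0 hr). The members are the 6 arrays of that time, 3 labelled shRUNX1 and 3 labelled shNS, of 24 arrays in all, the other 18 of which come from the same 2 arms after 8, 24 and 72 hr of differentiation in medium with serum. Both arms are H9, an established hESC line, grown without feeder cells, infected with a lentiviral GIPZ shRNA vector and selected in puromycin during the first passages. The shRUNX1 arm rests on a single hairpin against RUNX1 and the shNS arm on a single control hairpin, so an effect of RUNX1 and an effect of the hairpin or of the infected line cannot be told apart. Arrays of uninfected cells were not analysed here.

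RUNX1 is a DNA-binding transcription factor that acts with CBFB, a partner that stabilizes it on DNA, and it is best known for its part in the formation of blood. Pluripotent hESCs express little RUNX1 and rely on POU5F1, SOX2 and NANOG, while they keep an epithelial form with CDH1 at cell contacts. A difference between the arms at 0 hr therefore describes the cells from which the differentiation courses were started.

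Signals are the authors' normalized log2 values per transcript cluster (the array's unit for a locus), and every difference is shRUNX1 minus shNS on that log2 scale with its standard error (SE) from limma. Calls required an adjusted p (Benjamini-Hochberg, over all 23781 tested clusters) under 0.05 together with a fold change over 1.5. The study describes the replicates as independent experiments. With 3 arrays per arm the smallest exact p is 0.1. Over the tested genes, Pearson's r was 0.992 to 0.996 between shRUNX1 arrays, 0.993 to 0.996 between shNS arrays and 0.987 to 0.995 between arms. Replicate 2 of shRUNX1 was closest to replicate 3 of shNS (r = 0.995), closer than to either array of its own arm, and both stand apart in much of what follows.

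The RNA of the targeted gene was low and did not differ measurably between the arms. The RUNX1 cluster, which the gene table also assigns to LOC100506403, gave 5.85, 5.99 and 5.81 on the shRUNX1 arrays, against 5.97, 5.90 and 5.89 on the shNS arrays (log2 difference -0.03, SE 0.14, adjusted p = 0.936 from limma over all clusters, two-sided exact permutation p = 0.6). The arms overlapped, and these values lie below the median signal of each array (6.25 to 6.33), so the knockdown could not be checked on these undifferentiated arrays. CBFB gave 9.67, 9.57 and 9.74 on the shRUNX1 arrays, against 10.26, 10.30 and 10.04 on the shNS arrays, with no overlap (log2 difference -0.54, SE 0.17, adjusted p = 0.0821 from limma, and an exact permutation p of 0.1, two-sided). Its difference did not pass at 0 hr. The paralogs RUNX2 and RUNX3 gave differences of 0.03 and 0.08, and the sign of RUNX2 turned under quantile normalization (-0.05) and median centring (-0.02).

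Both arms had high signals of the core hESC factors. POU5F1 gave 11.77, 11.88 and 11.95 on the shRUNX1 arrays, against 11.57, 11.49 and 11.86 on the shNS arrays, and NANOG gave 11.15, 11.88 and 12.15 on the shRUNX1 arrays, against 11.11, 11.87 and 11.84 on the shNS arrays. These signals overlapped between the arms, as did those of SOX2, between 13.87 and 14.26 in shRUNX1 and between 13.84 and 14.14 in shNS cells. Of 32 measured pluripotency genes only THY1, a surface protein of hESCs and also of mesenchymal cells, was called, and the median difference of the list was 0.09, against 0.04 over all genes. In 4 of the 32 the shRUNX1 arrays lay wholly above the shNS arrays and in 2 wholly below. Over all tested genes these shares were 15% and 9.84%. CDH1 and EPCAM, also markers of hESCs, had wider differences that were not called and are given with the epithelial genes below. Of the markers of other cells a culture could hold, TBXT of the primitive streak lay between 5.28 and 5.30 in shRUNX1 and between 5.18 and 5.33 in shNS cells, and SOX17 of the endoderm between 5.13 and 5.30 and between 5.10 and 5.46. GATA1 of blood was between 5.02 and 5.17 in shRUNX1 and between 4.94 and 5.10 in shNS cells, and PECAM1 of endothelium between 3.61 and 3.68 in both arms, overlapping between the arms. All of these signals lie below the median of every array. Other members of such lists differed more. Of 22 endothelial and blood genes, 4 had shRUNX1 arrays wholly above the shNS arrays, with differences up to 1.04. Of 16 trophoblast and amnion genes it was 5, against 15% of all tested genes. In neither list was a gene called or wholly below. In such bulk samples, fewer cells of a type and less RNA per cell cannot be told apart. The mean log2 signal over 27 neuroectoderm genes was 7.27 to 7.48 in shRUNX1 and 7.49 to 7.78 in shNS cells, without a call, and over 19 primitive streak and mesendoderm genes it was 5.54 to 5.63 and 5.58 to 5.67. Of the neuroectoderm genes 4 had shRUNX1 arrays wholly below the shNS arrays and 0 wholly above, against 9.84% and 15% of all tested genes. The widest difference among them was -1.19. Mesenchymal genes are given below.

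In all, 238 clusters (1% of those tested) were called at 0 hr, 126 higher (0.53%) and 112 lower (0.471%) in shRUNX1 cells. They carry 206 gene symbols, since copies of the HLA region on alternative chromosome 6 haplotypes are counted separately, and taking the brightest cluster of each gene from the same fit, 97 genes were higher (0.432%) and 105 lower (0.467%). A difference of over 2-fold was reached by 18 clusters that were higher and 19 that were lower. The median difference over all tested genes was 0.04, and with each array centred on its own median 98 were called higher and 219 lower. The count depends on single arrays: it was 10 without shRUNX1 replicate 1 or replicate 3, 20 without shNS replicate 1 and 12 without shNS replicate 2, but 866 without shRUNX1 replicate 2 and 405 without shNS replicate 3. With the spread taken from only the 6 arrays of 0 hr, limma called 0 genes, while 708 had an unadjusted p under 0.05 with a fold over 1.5.

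**Figure D1:**
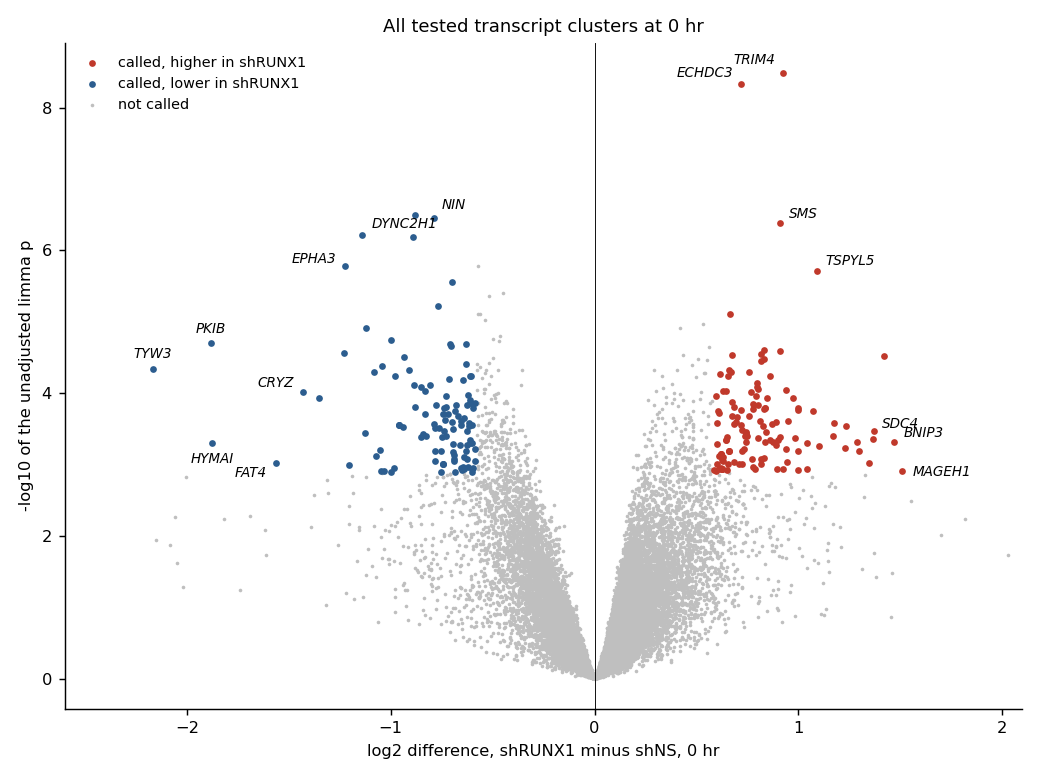
Each point is 1 of 23781 tested transcript clusters, with the log2 difference between shRUNX1 and shNS arrays at 0 hr on the x axis and -log10 of the unadjusted limma p on the y axis. Red points are the 126 clusters called higher and blue points the 112 called lower in shRUNX1 cells, and TRIM4 and ECHDC3 stand at the top at differences of 0.92 and 0.72.

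Every one of the 238 calls kept its sign with single arrays left out, which for the 221 with arms wholly apart was fixed in advance. Only 9 of the 238 stayed called with each of the 6 arrays left out in turn. Higher in shRUNX1 cells among these 9 were TRIM4, ECHDC3 and SMS. Lower were EPHA3, DYNC2H1, NIN, RMC1, C12orf56 and the 5S ribosomal RNA pseudogene RNA5SP28. C12orf56, ECHDC3, NIN, RMC1, SMS and RNA5SP28 lie outside the rule for named genes and were chosen after their values were seen.

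TRIM4, a RING-type ubiquitin ligase, gave 5.94, 5.94 and 5.995 on the shRUNX1 arrays, against 4.98, 4.97 and 5.16 on the shNS arrays (log2 difference 0.92, SE 0.09, adjusted p = 5.57e-05 from limma). ECHDC3, a mitochondrial protein with an enoyl-CoA hydratase domain, gave 6.25, 6.16 and 6.26 on the shRUNX1 arrays, against 5.52, 5.38 and 5.61 on the shNS arrays (log2 difference 0.72, SE 0.07, adjusted p = 5.57e-05). The arrays of each arm lay close together and well apart from the other arm, although both signals are near or below the median of all genes. SMS, which makes spermine from spermidine, was among the brightest genes of the array and gave 15.02, 14.94 and 14.73 on the shRUNX1 arrays, against 14.18, 13.96 and 13.82 on the shNS arrays (log2 difference 0.91, SE 0.12, adjusted p = 0.00199). TSPYL5, a TSPY-like nuclear protein, gave 5.88, 5.42 and 5.74 on the shRUNX1 arrays, against 4.63, 4.45 and 4.69 on the shNS arrays (log2 difference 1.09, SE 0.16, adjusted p = 0.00456) and kept its call with 5 of the 6 arrays left out, the adjusted p being 0.0536 in the other fit. ODC1, the rate-limiting enzyme of polyamine synthesis, was called in the opposite direction to SMS, with 12.55, 13.33 and 12.44 on the shRUNX1 arrays, against 14.34, 13.93 and 13.31 on the shNS arrays (log2 difference -1.08, SE 0.21, adjusted p = 0.0193), the arms overlapping at shRUNX1 replicate 2 and shNS replicate 3. ODC1 too was chosen after its values were seen.

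Among the lower genes of this kind, EPHA3, an ephrin receptor tyrosine kinase, gave 6.57, 6.89 and 6.58 on the shRUNX1 arrays, against 7.87, 8.27 and 7.56 on the shNS arrays (log2 difference -1.22, SE 0.18, adjusted p = 0.00444). DYNC2H1, the heavy chain of the dynein that carries cargo back along the cilium, gave 9.13, 9.64 and 9.27 on the shRUNX1 arrays, against 10.55, 10.73 and 10.18 on the shNS arrays (log2 difference -1.14, SE 0.16, adjusted p = 0.00224). NIN, the centrosomal protein ninein, gave 9.28, 9.33 and 9.30 on the shRUNX1 arrays, against 10.13, 10.24 and 9.89 on the shNS arrays (log2 difference -0.79, SE 0.10, adjusted p = 0.00199). In each the highest shRUNX1 array lay below the lowest shNS array. RMC1, a regulator of the MON1-CCZ1 complex of late endosomes, gave 7.73, 7.68 and 7.70 on the shRUNX1 arrays, against 8.55, 8.38 and 8.27 on the shNS arrays (log2 difference -0.70, SE 0.11, adjusted p = 0.00603).

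The widest called differences were 2.84-fold higher, for MAGEH1, and 4.50-fold lower, for TYW3. MAGEH1, a member of the MAGE family on the X chromosome, gave 9.15, 9.03 and 9.44 on the shRUNX1 arrays, against 7.14, 7.69 and 8.27 on the shNS arrays (log2 difference 1.51, SE 0.40, adjusted p = 0.0492). SDC4, a heparan sulfate proteoglycan of the cell surface, gave 11.25, 9.99 and 11.05 on the shRUNX1 arrays, against 9.24, 9.201 and 9.75 on the shNS arrays (log2 difference 1.37, SE 0.32, adjusted p = 0.0342), and BNIP3, a mitochondrial protein induced by low oxygen, gave 10.43, 8.72 and 10.59 on the shRUNX1 arrays, against 8.54, 8.50 and 8.28 on the shNS arrays (log2 difference 1.47, SE 0.35, adjusted p = 0.0356). In both SDC4 and BNIP3, shRUNX1 replicate 2 lay much nearer to the shNS arrays than shRUNX1 replicates 1 and 3 did. The pseudogene BNIP3P1, nearly identical to BNIP3 and therefore not separable from it by probes with certainty, was called with a difference of 1.17.

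Other genes of the cell surface, matrix and lipid handling were among the 14 largest rises. PLPP2, which removes phosphate from lipids, had a difference of 1.35, ENPP1, which makes pyrophosphate outside the cell, of 1.23, and P3H2, a hydroxylase of collagen proline, of 1.29. MFGE8, a secreted protein that binds integrins and dying cells, had 1.10, the protocadherin PCDHB15 1.17 and RARRES2, the chemoattractant chemerin, 1.07. NFE2L3, a CNC-type bZIP transcription factor, gave 12.83, 12.38 and 13.21 on the shRUNX1 arrays, against 11.27, 11.36 and 11.90 on the shNS arrays (log2 difference 1.298, SE 0.32, adjusted p = 0.038). All 3 shRUNX1 arrays of this gene stood above the highest shNS array.

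TYW3, an enzyme that modifies phenylalanine tRNA, gave 6.23, 7.596 and 7.17 on the shRUNX1 arrays, against 8.81, 8.88 and 9.81 on the shNS arrays (log2 difference -2.17, SE 0.42, adjusted p = 0.0193). CRYZ, a quinone reductase known as zeta-crystallin, gave 6.12, 6.72 and 6.58 on the shRUNX1 arrays, against 7.61, 7.63 and 8.46 on the shNS arrays (log2 difference -1.43, SE 0.29, adjusted p = 0.0238). The 2 genes are neighbours on chromosome 1 in the RefSeq annotation. PKIB, an inhibitor of cAMP-dependent protein kinase, gave 6.55, 7.96 and 7.44 on the shRUNX1 arrays, against 9.16, 9.36 and 9.08 on the shNS arrays (log2 difference -1.88, SE 0.34, adjusted p = 0.0173), with shRUNX1 arrays that spread over more than 1 log2 unit but remained below all shNS arrays. Each of the 3 calls ended without shRUNX1 replicate 1 or 3 or without shNS replicate 1 or 2.

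FAT4, a giant cadherin of planar cell polarity, gave 8.67, 8.06 and 8.33 on the shRUNX1 arrays, against 10.56, 10.13 and 9.06 on the shNS arrays (log2 difference -1.57, SE 0.40, adjusted p = 0.0454). Replicate 3 of shNS lay more than 1 below the other shNS arrays. ENPP2, the secreted enzyme autotaxin, had a difference of -1.35, and NETO2, an auxiliary subunit of kainate receptors, of -1.23. The chromatin proteins ASXL3 and MACROH2A2, a histone variant, had -1.05 and -1.001, the calcium-dependent kinase CAMK2D -1.05, PRTFDC1 -1.04 and the cytosolic malic enzyme ME1 -0.9997. The shNS spread was wide for ASXL3, at 7.37, 8.77 and 7.74, while the shRUNX1 arrays lay at 6.90, 6.91 and 6.93.

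**Figure D2:**
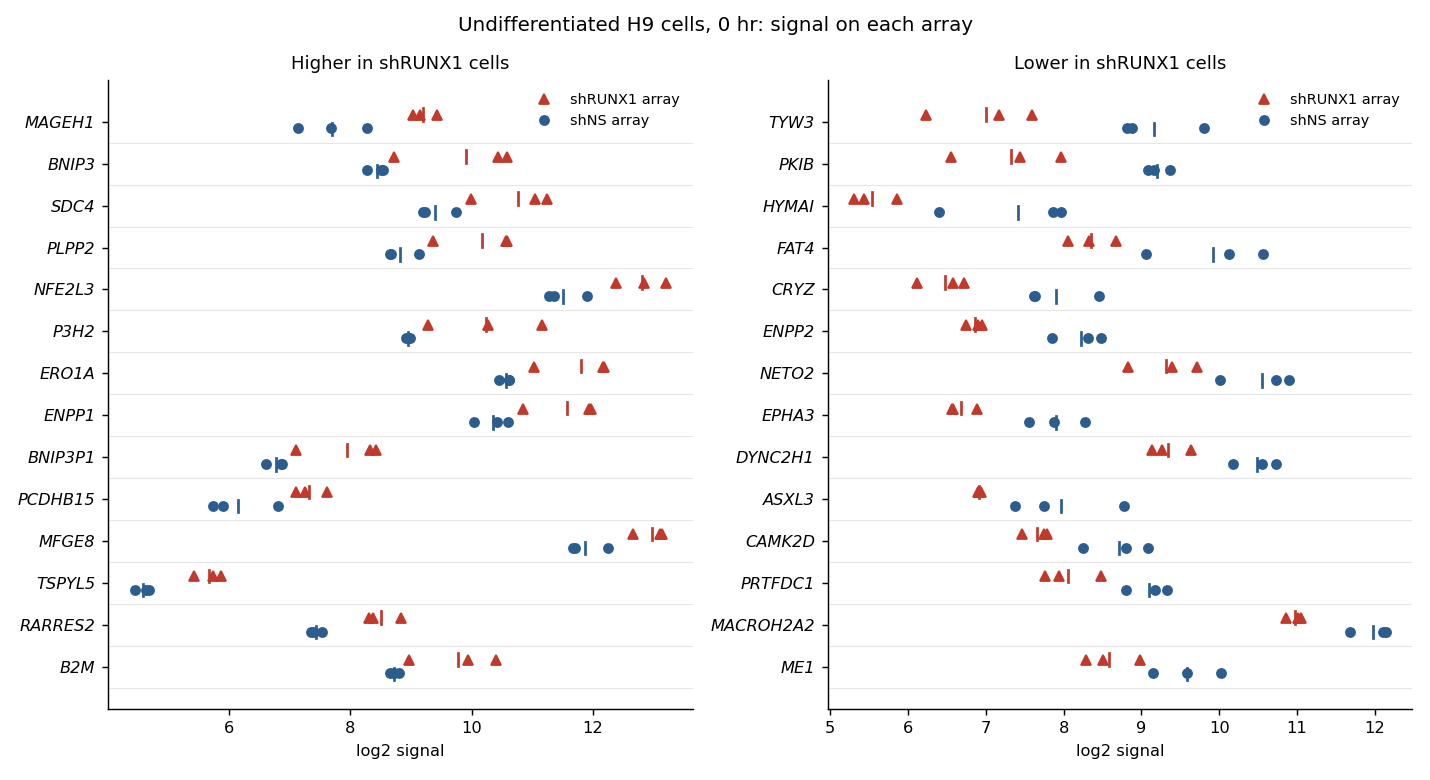
Log2 signal (x axis) on each array at 0 hr for the 14 genes with the widest called rises (left) and the 14 with the widest called falls (right). Triangles are shRUNX1 arrays above, circles shNS arrays below, vertical bars the means, and no gene shown has overlapping arms; TYW3 lies between 6.23 and 7.60 in shRUNX1 and between 8.81 and 9.81 in shNS cells.

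HYMAI, an imprinted noncoding RNA of chromosome 6, was called lower together with a lower signal of PLAGL1, a zinc finger transcription factor of the same imprinted locus. HYMAI gave 5.86, 5.31 and 5.43 on the shRUNX1 arrays, against 7.96, 7.87 and 6.39 on the shNS arrays (log2 difference -1.88, SE 0.45, adjusted p = 0.0358). PLAGL1 gave 7.20, 7.07 and 6.98 on the shRUNX1 arrays, against 9.02, 8.84 and 7.56 on the shNS arrays (log2 difference -1.39, SE 0.47, adjusted p = 0.101) and was not called. In both, shNS replicate 3 lay nearest the shRUNX1 arrays. The RefSeq promoter table (GRCh38.p14) gives the 2 genes the same window, 250 bases before to 50 bases after the start, at chr6:144008210-144008509 on the minus strand, 1 of 5 windows of PLAGL1. It is shown because both transcripts can start in it, with CG dinucleotides, the sites that are methylated on imprinted alleles, in capitals.
HYMAI and PLAGL1: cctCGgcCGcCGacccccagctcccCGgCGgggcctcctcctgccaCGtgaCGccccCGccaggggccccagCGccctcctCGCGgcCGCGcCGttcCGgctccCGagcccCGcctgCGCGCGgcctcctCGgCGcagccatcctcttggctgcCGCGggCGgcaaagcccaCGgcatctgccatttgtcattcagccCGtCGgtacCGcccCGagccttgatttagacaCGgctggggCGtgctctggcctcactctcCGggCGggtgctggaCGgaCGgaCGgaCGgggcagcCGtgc
It holds 39 CG dinucleotides, against a median of 14 over all windows of the table, and 8.71% of windows hold as many or more. None of the 21 measured genes of the imprinted list, PLAGL1 among them, was called.

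B2M and the MHC class I genes HLA-B, HLA-C and HLA-E were called higher in shRUNX1 cells. B2M, the light chain that every class I molecule shares, gave 10.41, 8.96 and 9.94 on the shRUNX1 arrays, against 8.80, 8.73 and 8.65 on the shNS arrays (log2 difference 1.04, SE 0.25, adjusted p = 0.0357). HLA-C gave 10.17, 9.53 and 10.16 on the shRUNX1 arrays, against 9.01, 9.12 and 9.25 on the shNS arrays (log2 difference 0.83, SE 0.18, adjusted p = 0.0265), and HLA-B gave 8.63, 8.11 and 8.84 on the shRUNX1 arrays, against 7.63, 7.68 and 7.87 on the shNS arrays (log2 difference 0.80, SE 0.19, adjusted p = 0.0334). In all 3 genes shRUNX1 replicate 2 was the lowest array of its arm, and still lay above the highest shNS array. Of 31 measured genes of antigen presentation, a list assembled after the values were seen, 7 were called higher and 0 lower, the others being HLA-E, HLA-DQB1, HLA-DRA and PSME1, an activator subunit of the proteasome. The list's median difference was 0.32 and 2 of 31 were negative, beside a median of 0.04 and 42.2% negative over all genes, of which 0.432% were called higher. With single arrays left out, the calls in the list were 12 without shRUNX1 replicate 2, 4 without shNS replicate 3 and 0 without any other, while the median stayed between 0.26 and 0.42. HLA genes share near-identical stretches and lie in several haplotype copies, so their signals, and that of the pseudogene HLA-H, are not separable with certainty. The class II transactivator CIITA gave 4.95, 4.88 and 5.02 on the shRUNX1 arrays, against 4.89, 4.90 and 4.94 on the shNS arrays, and NLRC5, the class I transactivator, gave 5.29, 5.31 and 5.35 on the shRUNX1 arrays, against 5.29, 5.21 and 5.27 on the shNS arrays, both near background.

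The promoters of the called class I genes in the RefSeq table share the arrangement known as the X2 and Y boxes, by which class I genes are transcribed. They are shown because the genes moved together. Capitals mark TGACG, the core of the X2 box, and ATTGG, the CCAAT motif of the Y box, searched on both strands. The windows are chr15:44711267-44711566 on the plus strand for B2M, chr6:31357130-31357429 on the minus strand for HLA-B and chr6:31272043-31272342 on the minus strand for HLA-C.
B2M: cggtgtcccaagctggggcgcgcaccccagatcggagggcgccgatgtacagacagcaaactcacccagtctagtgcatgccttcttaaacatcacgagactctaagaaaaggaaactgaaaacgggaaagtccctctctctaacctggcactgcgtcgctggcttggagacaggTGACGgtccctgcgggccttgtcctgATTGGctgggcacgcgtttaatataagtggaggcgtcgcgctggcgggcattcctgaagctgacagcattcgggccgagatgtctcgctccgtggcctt
HLA-B: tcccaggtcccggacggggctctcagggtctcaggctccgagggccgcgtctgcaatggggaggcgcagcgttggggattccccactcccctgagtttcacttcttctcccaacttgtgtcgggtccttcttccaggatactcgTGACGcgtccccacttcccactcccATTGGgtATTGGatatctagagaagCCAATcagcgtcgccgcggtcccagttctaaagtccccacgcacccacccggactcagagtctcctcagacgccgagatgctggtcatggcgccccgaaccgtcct
HLA-C: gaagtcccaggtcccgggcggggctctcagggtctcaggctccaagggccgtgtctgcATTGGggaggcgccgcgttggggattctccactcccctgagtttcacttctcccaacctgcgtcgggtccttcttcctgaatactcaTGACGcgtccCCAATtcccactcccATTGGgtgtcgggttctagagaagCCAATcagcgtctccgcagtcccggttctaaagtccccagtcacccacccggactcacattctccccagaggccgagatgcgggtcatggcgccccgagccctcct
TGACG began 26 bases before ATTGG in B2M and 25 bases before it in HLA-B and HLA-C. Of 34943 promoter windows in the table, 24.5% hold TGACG, 34.6% hold ATTGG and 1.54% hold TGACG, in either orientation, starting 15 to 35 bases before ATTGG, in either orientation. The last share was 5 of 91 windows of the genes called higher, of which 62 of 97 matched the table, and 6 of 113 windows of the genes called lower, of which 82 of 105 matched. TGTGGT, the core that RUNX proteins bind, was in 13 of the 91 and 8 of the 113 windows (14.3% and 7.08%), against 13.1% of all windows. A match is a match of letters in these windows only.

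Of 37 measured interferon response genes, 4 were called higher, where 0.432% of all genes were called higher. All 4 were the class I genes B2M, HLA-B, HLA-C and HLA-E. The interferon-induced IFI6 had a difference of 0.96 (adjusted p = 0.06) and BST2 of 1.11 (adjusted p = 0.371), and IRF1, a transcription factor of that response, of 0.06. The median of the list was 0.10. ICAM1, an adhesion molecule and target of NF-kB, was called higher at 0.79, as the only 1 of 20 measured NF-kB targets, and its arms overlapped.

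Of 68 measured lysosomal genes, a list also assembled after the values were seen, 10 were called higher in shRUNX1 cells and 0 lower, where 0.432% of all genes were called higher. A positive difference was found for 52 and a negative one for 16, with a median of 0.27. Called were the nuclease DNASE2 (0.99), the proton pump accessory subunit ATP6AP2 (0.90), the membrane proteins LAPTM4A (0.89), SCARB2 (0.84), LAPTM4B (0.71) and CD63 (0.60), the cathepsin CTSV (0.86), the peptidase PRCP (0.72) and the fucosidase FUCA1 (0.69). Also called was TFE3, a transcription factor that activates lysosomal genes, which gave 8.35, 9.04 and 8.40 on the shRUNX1 arrays, against 7.82, 7.75 and 7.95 on the shNS arrays (log2 difference 0.76, SE 0.15, adjusted p = 0.0193). Unlike the others, TFE3 was highest on shRUNX1 replicate 2. TFEB, its relative, had a difference of 0.09. The 10 calls were 20 without shRUNX1 replicate 2, 9 without shNS replicate 3, 1 without shRUNX1 replicate 1 and 0 without shRUNX1 replicate 3 or shNS replicate 1 or 2, while the median stayed between 0.21 and 0.33.

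**Figure D3:**
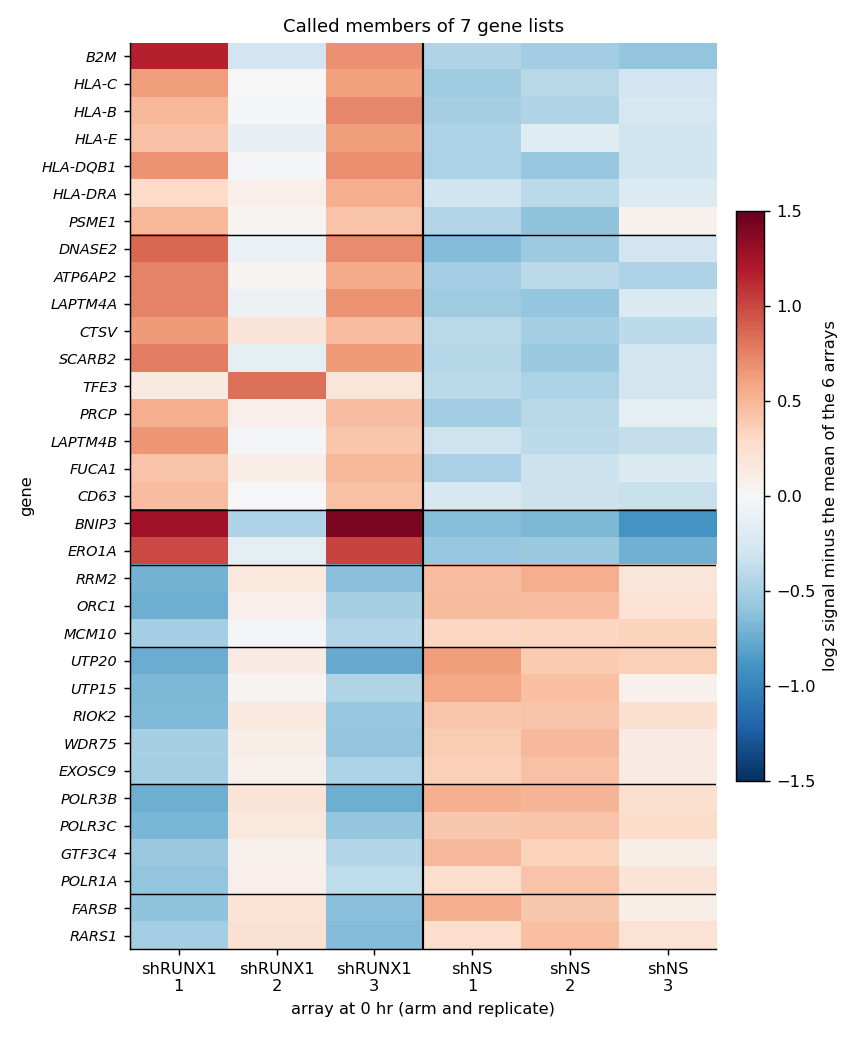
Log2 signal of each called gene (rows) on each array at 0 hr (columns, shRUNX1 left of shNS), minus the mean of the 6 arrays. From top to bottom the blocks are antigen presentation, lysosome, hypoxia and glycolysis, DNA replication, ribosome biogenesis, RNA polymerases I and III, and aminoacyl-tRNA synthetases, and the column of shRUNX1 replicate 2 is paler than those of replicates 1 and 3 in nearly all rows but that of TFE3.

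Calls among genes for ribosome assembly, for transcription by RNA polymerases I and III, for tRNA charging and for DNA replication were all lower in shRUNX1 cells, and made up a small part of each list. Over all genes 0.467% were called lower. Of 81 measured ribosome biogenesis genes, 5 were called lower and 0 higher, 77 had a negative difference and the median was -0.36, where 42.2% of all genes were negative. UTP20, a large scaffold protein of the small subunit processome, gave 10.96, 11.82 and 10.95 on the shRUNX1 arrays, against 12.32, 12.09 and 12.05 on the shNS arrays (log2 difference -0.91, SE 0.18, adjusted p = 0.0193). UTP15 and WDR75, of the same particle, had differences of -0.73 and -0.65, RIOK2, a kinase of small subunit maturation, of -0.72, and EXOSC9, of the RNA exosome, of -0.61. In UTP20 the shRUNX1 replicates 1 and 3 lay more than 1 below every shNS array, and replicate 2 only slightly below the lowest. UTP14A had the widest difference of the list, at -1.38 (adjusted p = 0.0659). None of 48 measured cytosolic ribosomal protein genes was called, with a median of 0.0012.

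Of 33 measured genes of RNA polymerases I and III and their factors, 4 were called lower and 0 higher, where 0.467% of all genes were called lower. A negative difference was found for 28, against 42.2% of all genes, and the median was -0.25. POLR3B, the second largest subunit of RNA polymerase III, gave 8.30, 9.23 and 8.31 on the shRUNX1 arrays, against 9.57, 9.55 and 9.28 on the shNS arrays (log2 difference -0.85, SE 0.17, adjusted p = 0.0236). Its subunit POLR3C had a difference of -0.74, GTF3C4 of the initiation factor TFIIIC of -0.61, and POLR1A, the largest subunit of RNA polymerase I, of -0.60. Of 19 aminoacyl-tRNA synthetases, which load amino acids on tRNA, FARSB (-0.69) and RARS1 (-0.62) were called lower, with overlapping arms, and the median was -0.22. These 3 lists were assembled after the values were seen. None of their calls remained without shRUNX1 replicate 1 or 3 or shNS replicate 1 or 2, and without shRUNX1 replicate 2 there were 35 calls in ribosome biogenesis, 6 in the polymerases and 2 in the synthetases. The median of ribosome biogenesis stayed between -0.52 and -0.24 with single arrays left out.

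Of 48 measured genes of DNA replication and nucleotide supply, 3 were called lower and 0 higher, 43 were negative and the median was -0.33. Over all genes 0.467% were called lower and 42.2% were negative. RRM2, the small subunit of ribonucleotide reductase, gave 9.64, 10.496 and 9.71 on the shRUNX1 arrays, against 10.81, 10.88 and 10.52 on the shNS arrays (log2 difference -0.79, SE 0.18, adjusted p = 0.0297). ORC1, of the origin recognition complex, had a difference of -0.78, and MCM10, which activates the replicative helicase, of -0.64. The arms did not overlap in these 3 genes, but shRUNX1 replicate 2 was the nearest to the shNS arrays in each. Over the list, 21 genes had shRUNX1 arrays wholly below the shNS arrays, against 9.84% of all tested genes. The 3 calls were 0 without shRUNX1 replicate 1 or 3 or shNS replicate 1 or 2, 13 without shRUNX1 replicate 2 and 5 without shNS replicate 3. None of 50 mitotic genes was called, 35 were negative and 16 had shRUNX1 arrays wholly below the shNS arrays, with a median of -0.08. None of 23 replication-dependent histone genes was called, with a median of 0.0011. PMAIP1, the BH3-only protein NOXA and a p53 target, was called higher with 10.57, 10.68 and 10.23 on the shRUNX1 arrays, against 9.37, 9.42 and 9.71 on the shNS arrays (log2 difference 0.996, SE 0.25, adjusted p = 0.0385), the only 1 of 29 measured CDK inhibitors and p53 targets.

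Of 48 measured genes of the hypoxia response and glycolysis, BNIP3 and ERO1A were called higher, where 0.432% of all genes were. A positive difference was found for 41 and a negative one for 7, against 42.2% negative over all genes, with a median of 0.26. The list mean overlapped between the arms, at 9.118 to 9.571 in shRUNX1 and 9.033 to 9.120 in shNS cells. The calls were 0 without shRUNX1 replicate 1 or 3 or shNS replicate 1, and 6 without shRUNX1 replicate 2. BNIP3 and ERO1A each stayed called in only 1 of the 6 fits with a single array left out. ERO1A, the oxidase that forms disulfide bonds in the endoplasmic reticulum, gave 12.17, 11.04 and 12.19 on the shRUNX1 arrays, against 10.61, 10.62 and 10.46 on the shNS arrays (log2 difference 1.23, SE 0.28, adjusted p = 0.03). DDIT4, an inhibitor of mTORC1, had a difference of 0.94 (adjusted p = 0.158) and P4HA1, a collagen prolyl hydroxylase, of 0.81 (adjusted p = 0.101), and neither was called. The glycolytic enzymes LDHA and PGK1 had differences of -0.10 and 0.33, not called either. None of 65 oxidative phosphorylation genes was called, with a median of 0.0037.

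Most epithelial genes had positive differences, with a single call. Of 38 measured genes 36 were positive, 19 had shRUNX1 arrays wholly above the shNS arrays, against 15% of all tested genes, and the median was 0.27. Over all genes 42.2% were negative and 0.432% were called higher. The mean log2 signal over the list was 8.63 to 8.77 in shRUNX1 and 8.14 to 8.45 in shNS cells. Without shRUNX1 replicate 1 or 3 or shNS replicate 1 the list had 0 calls, and without shRUNX1 replicate 2 it had 6. The SPINT2 call held in 2 of the 6 fits with a single array left out. Only SPINT2, a membrane-bound inhibitor of serine proteases, was called, with 8.61, 7.91 and 8.42 on the shRUNX1 arrays, against 7.36, 7.10 and 7.54 on the shNS arrays (log2 difference 0.98, SE 0.20, adjusted p = 0.025). The cadherin CDH1 had the widest difference of the list and was not called, with 12.26, 11.93 and 12.54 on the shRUNX1 arrays, against 9.91, 10.33 and 11.39 on the shNS arrays (log2 difference 1.70, SE 0.59, adjusted p = 0.112). The shNS arrays of CDH1 spread over more than 1 log2 unit. The protease PRSS8 had a difference of 1.55 (adjusted p = 0.0713), the tight junction protein OCLN of 1.08 (adjusted p = 0.0737) and the adhesion molecule EPCAM of 1.08 (adjusted p = 0.102).

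Of 29 mesenchymal genes VIM was called lower and THY1 higher, and the median was -0.0027. Over all genes 0.467% were called lower and 0.432% higher. Neither call remained without shRUNX1 replicate 1 or 3 or shNS replicate 1, and each held in 2 of the 6 fits with a single array left out. VIM, an intermediate filament protein, gave 11.77, 11.73 and 11.32 on the shRUNX1 arrays, against 12.88, 12.76 and 11.998 on the shNS arrays (log2 difference -0.94, SE 0.21, adjusted p = 0.0302). Replicate 3 of shNS lay nearest the shRUNX1 arrays, still above all of them. THY1 gave 10.14, 9.43 and 10.33 on the shRUNX1 arrays, against 8.94, 8.83 and 9.36 on the shNS arrays (log2 difference 0.93, SE 0.24, adjusted p = 0.048). The matrix protein TNC had a difference of -1.22 (adjusted p = 0.266), with shNS replicate 3 again far below the other shNS arrays. None of 26 genes of actin and contraction, 24 integrin and focal adhesion genes or 14 EMT transcription factors was called. ZEB2, a repressor of CDH1 whose cluster is shared with ZEB2-AS1, gave 7.31, 7.36 and 7.30 on the shRUNX1 arrays, against 8.21, 8.52 and 7.79 on the shNS arrays (log2 difference -0.85, SE 0.20, adjusted p = 0.0732 from limma over all clusters).

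**Figure D4:**
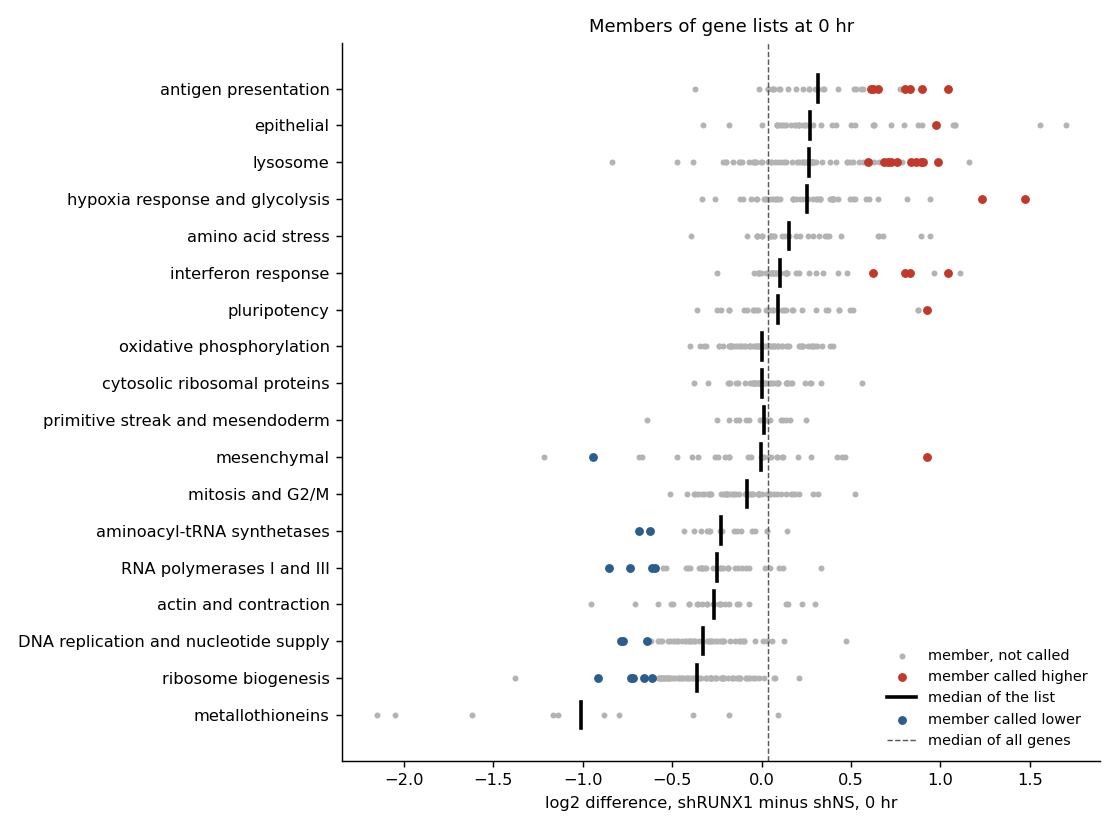
Log2 difference at 0 hr (x axis) of each measured member of 18 gene lists (rows), as shRUNX1 minus shNS. Black bars are the list medians and the dashed line the median of all genes, 0.04; called members are in red or blue, 10 of them in the lysosome list and 5 in the ribosome biogenesis list.

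Metallothioneins, small proteins that bind zinc and copper, had wide differences and were not called. MT1H gave 7.70, 12.28 and 8.64 on the shRUNX1 arrays, against 11.64, 11.55 and 11.88 on the shNS arrays (log2 difference -2.15, SE 0.77, adjusted p = 0.12), and MT2A gave 8.41, 12.06 and 9.32 on the shRUNX1 arrays, against 11.14, 11.77 and 11.74 on the shNS arrays (log2 difference -1.62, SE 0.55, adjusted p = 0.105). The low signals were on shRUNX1 replicates 1 and 3, while replicate 2 was above every shNS array for both genes. The median over 10 metallothioneins was -1.01 and it was -0.57 without shRUNX1 replicate 1, -0.76 without replicate 3 and -1.65 without replicate 2, when 7 were called lower.

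Signaling genes of the ephrin, WNT, BMP and YAP lists gave a single call. Besides EPHA3, the receptor EPHA7 had a difference of -1.20 (adjusted p = 0.097) and the ligand EFNB2 of -0.96 (adjusted p = 0.116), both with shRUNX1 arrays below all shNS arrays. The remaining ephrins and Eph receptors ran both ways, with a list median of 0.02, which was -0.05 after quantile normalization. The WNT ligand WNT8B had a difference of -1.32 (adjusted p = 0.319), the YAP target ANKRD1 of -1.74 (adjusted p = 0.255) and the BMP inhibitor GREM1 of -0.98 (adjusted p = 0.355). Among the YAP target genes 17 of 20 were negative, against 42.2% of all genes, with a median of -0.29. The list mean overlapped between the arms, at 7.76 to 7.85 in shRUNX1 and 7.69 to 8.41 in shNS cells. None of the 43 WNT, 25 BMP, 33 Nodal and TGFB, 28 FGF, 22 NOTCH and 20 YAP target genes measured was called.

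On the X chromosome 8 of 791 genes were called higher (1.01%) and 0 lower, MAGEH1, SMS, TFE3, ATP6AP2 and XIST among them. Over all genes 0.432% were called higher and 0.467% lower, and on chromosomes 6 and 15 the shares called higher were 0.878% and 0.85%. Some called genes lay side by side. Among protein-coding genes, 6 adjacent pairs of the RefSeq order had both members called, each pair in the same direction. How often adjacent genes share a direction over all genes was not counted, so no background stands beside these pairs. Lower were CRYZ with TYW3, ANKRD50 with FAT4, RIOK2 with RGMB and POLR3B with RFX4, and higher were HAPLN3 with MFGE8 and HLA-C with HLA-B. The signals of HLA-C and HLA-B are not separable with certainty. HAPLN3, a link protein of hyaluronan, gave 7.68, 7.72 and 7.69 on the shRUNX1 arrays, against 7.005, 6.98 and 7.12 on the shNS arrays (log2 difference 0.66, SE 0.13, adjusted p = 0.0193), a difference smaller than that of MFGE8 but with arrays closer together.

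The same contrast at 8, 24 and 72 hr had 1, 27 and 381 calls (0.00421%, 0.114% and 1.6%). The later arrays took no part in the 0 hr difference itself. They did enter the spread behind the 0 hr calls, so clusters with close later arrays were more readily called. The single call at 8 hr was higher, 21 of those at 24 hr were lower (0.0883%), and at 72 hr 109 were higher (0.458%) and 272 lower (1.14%). Of the 238 clusters called at 0 hr, the sign was the same for 214 after 8 hr, for 212 after 24 hr and for 174 after 72 hr (89.9%, 89.1% and 73.1%), where 66.6%, 66.9% and 60.5% of all tested genes had the same sign as at 0 hr. Counted as genes with 1 cluster each, it was the same for 182, 180 and 147 of 202. The clusters were chosen for a wide difference at 0 hr, so a smaller median at the other times follows from the choice and is given as a description: those called higher had a median of 0.78 at 0 hr and of 0.24, 0.25 and 0.14 later, and those called lower -0.74 at 0 hr and -0.21, -0.26 and -0.14 later. None was called in the other direction, and 1, 6 and 14 were called in the same direction. In 26 of the 238 (10.9%), the shRUNX1 arrays lay wholly on the side of the 0 hr difference at each of the 3 later times, as in 1.93% of all tested clusters. Since the spread of the later arrays entered the 0 hr calls, these shares are not from independent arrays.

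TRIM4 was the single gene called at all 4 times, with differences of 0.83, 0.59 and 0.73 after 8, 24 and 72 hr. TSPYL5 had 0.73, 1.22 and 1.02, TYW3 -1.80, -1.77 and -2.04, CRYZ -1.65, -1.69 and -1.87 and PKIB -1.61, -1.63 and -1.68, in the same order of times. Each of these 5 genes kept a difference of more than 0.5 in its direction at every time. TSSC2, a transcribed pseudogene, had 0.86 at 0 hr and 1.07, 1.42 and 1.63 later, so its difference was widest at 72 hr. The others called again at a later time were MFGE8, CTSV, a haplotype copy of HLA-DQB1, FHIP1A and RNA5SP488 in the higher direction and ME1, PRTFDC1, TRIP12, SNRPD3 and DOCK10 in the lower direction. ME1 had -0.9997 at 0 hr and -0.39, -0.55 and -1.31 later.

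Other genes were called at 0 hr and lay near 0 later. BNIP3 had -0.22, -0.23 and 0.39 at 8, 24 and 72 hr, B2M -0.07, 0.13 and -0.21, P3H2 -0.27, -0.21 and -0.09 and EPHA3 -0.03, -0.27 and -0.09. The change, taken as the mean of the 3 later differences minus the 0 hr difference, was -1.49 (SE 0.41, adjusted p = 0.196 from limma) for BNIP3, -1.09 (SE 0.29, adjusted p = 0.196) for B2M and 1.09 (SE 0.21, adjusted p = 0.15) for EPHA3. None of these changes passed the test. RNA5SP28 was the only gene of 23781 (0.00421%) whose change did, at 1.16 (SE 0.14, adjusted p = 0.00272), with 5.85, 6.09 and 6.06 on the shRUNX1 arrays, against 6.99, 6.97 and 6.73 on the shNS arrays at 0 hr. Without shRUNX1 replicate 2, 359 genes passed it, and without shNS replicate 3, 10.

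**Figure D5:**
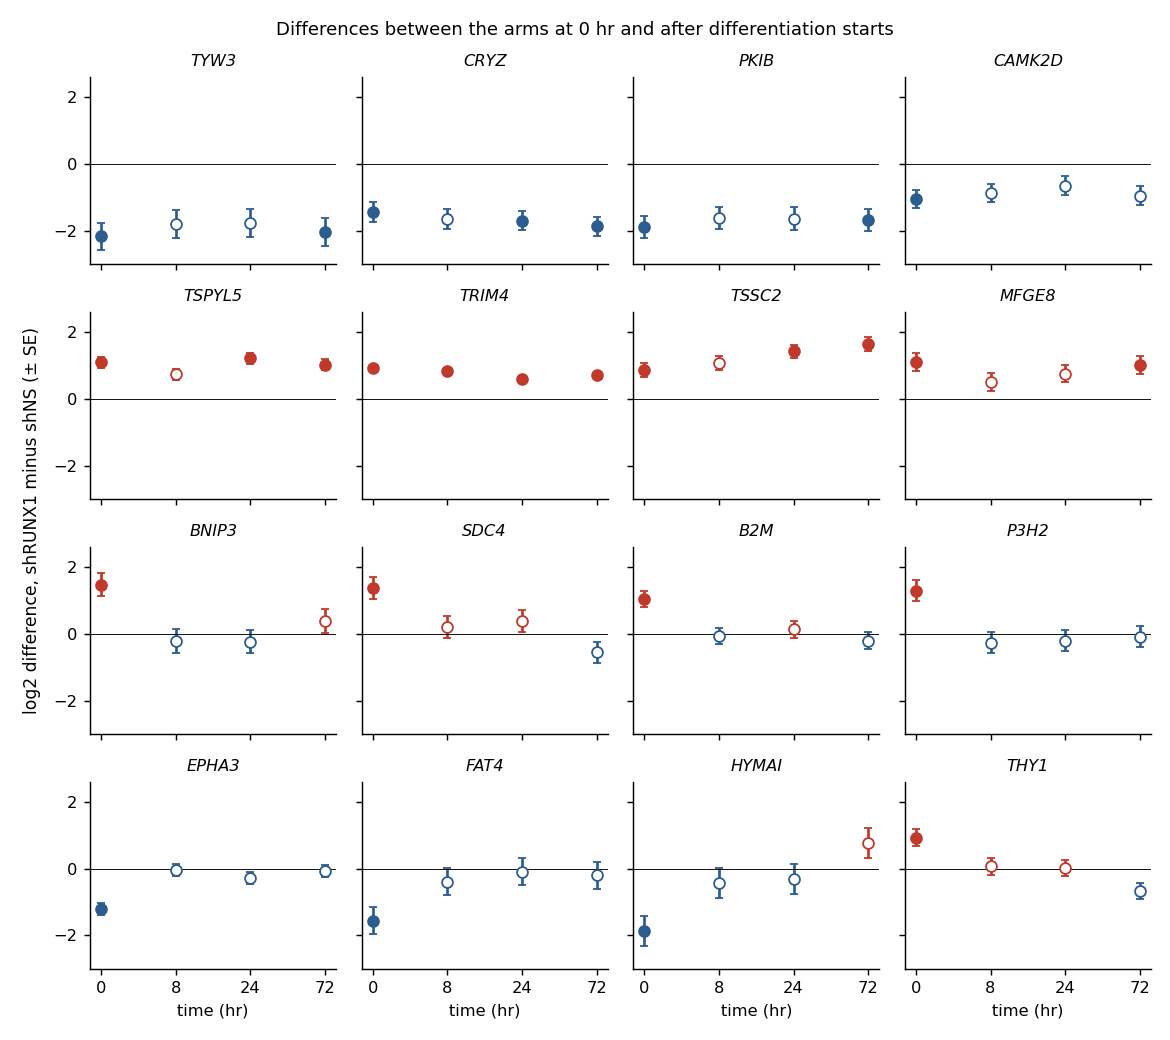
Log2 difference between shRUNX1 and shNS arrays (y axis, ± SE from limma) at 0, 8, 24 and 72 hr (x axis, evenly spaced) for 16 genes called at 0 hr. Filled points passed the call at that time and open points did not; the upper 8 genes keep their side throughout, as TYW3 between -1.77 and -2.17, while the lower 8 are nearer 0 at the later times or, like HYMAI and THY1 at 72 hr, on the other side.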

How the data were processed

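Values were the normalized log2 signals per transcript cluster as deposited by the authors, who ran RMA in Expression Console. Leveling for GC content and a signal-space transformation were applied, and the Transcriptome Analysis Console was version 1.0.0.234. They were used without further normalization. Of 67528 clusters, the 23781 with exactly 1 symbol in the platform's gene table were tested, and 21497 of these matched RefSeq by gene identifier. RUNX1 and ZEB2 share their clusters and were fitted among all clusters.

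Group means of all 24 arrays (8 groups, 16 residual degrees of freedom) were fitted with limma 3.58.1 (lmFit, then eBayes with a trend) under R 4.3.3. Tests are two-sided, and calls need a fold over 1.5 and, by Benjamini-Hochberg, an adjusted p under 0.05. Lists use the brightest cluster of a gene. Precision is limited by the number of arrays.

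The members, the rule for naming genes and 48 gene lists were chosen with earlier results of these data known. In addition, 5 lists, antigen presentation, lysosome, ribosome biogenesis, RNA polymerases I and III and aminoacyl-tRNA synthetases, were assembled after the values were seen. Named are RUNX1, RUNX2, RUNX3 and CBFB, the 14 widest called rises and 14 widest called falls without overlap (leaving out symbols that begin with LOC, LINC, MIR, SNOR, RNU, RN7 or FAM or contain orf or -AS, XIST and Y-linked genes, so that HYMAI and BNIP3P1 stay), called list members and up to 4 further members of a list, and genes called again later.

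Replicates 1 to 3 carry the letters C, D and E in shRUNX1 and A, B and C in shNS, whose meaning is not given in the sources used here. Promoter sequences are from RefSeq (GRCh38.p14). Plots used matplotlib 3.10.9 under Python 3.11.15.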

Additional observations from a re-analysis of the deposited data

Results flagged for a closer look

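THY1 was called higher in shRUNX1 cells at 0 hr (0.93) and lay on the other side at 72 hr (-0.67), with shRUNX1 and shNS arrays apart without overlap at both times. This contrast between the times was chosen for its signs, and its change over the later times did not pass the test (-1.12, SE 0.28, adjusted p = 0.171 from limma).

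RNA5SP28, a 5S ribosomal RNA pseudogene, differed between 0 hr and the later times by the test of the change itself (1.16, SE 0.14, adjusted p = 0.00272 from limma).

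Outside the tested genes, 43747 transcript clusters carry no symbol or several. Of these, 76 met the same criteria at 0 hr in the fit over all clusters, 54 higher and 22 lower in shRUNX1 cells, and 2 of the 76 carry several symbols.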

How the results depend on the processing

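The 0 hr count of 238 (126 higher, 112 lower) was 189 (115 and 74) after quantile normalization, 317 (98 and 219) after median centring, 130 (77 and 53) over all transcript clusters, 842 (446 and 396) with array weights, 37 (18 and 19) at a fold over 2, 674 (371 and 303) with unadjusted p and 614 (304 and 310) with no fold threshold. With only the 6 arrays of 0 hr limma called 0 (0 and 0), 708 at unadjusted p. The methods' ANOVA with a fold over 1.5 gave 0 (0 and 0) after adjustment and 407 (237 and 170) before it. Left out in turn, single arrays gave 10 to 866 calls, 4 to 403 higher and 6 to 463 lower, and 1 to 359 calls of change after 0 hr (10 without shNS replicate 3). Of settings added after the values were seen, a new fit on 1 cluster per gene called 177 (86 and 91), leaving out chromosome 6 called 170 (80 and 90), and leaving out shRUNX1 replicate 2 with shNS replicate 3 called 1082 (475 and 607).

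Whether title numbers pair the arrays was not settled. At 0 hr the deviations of same-numbered arrays from their group means correlated at 0.155, 0.0228 and 0.13. Only 1 shRUNX1 array correlated best with the shNS array of its own number. With the replicate block by title number 356 were called (198 and 158), with a fixed block by letter 425 (218 and 207), which hold 105 of the 238, and with a random block by letter 313 (162 and 151). In letter C alone, which is shRUNX1 replicate 1 and shNS replicate 3, 237 of 238 had the same sign. Both arrays helped to define the 238 calls, and in 221 of these the arms lay wholly apart. The count was therefore nearly fixed in advance.

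RUNX1, uncalled throughout, changed sign without shRUNX1 replicate 3 (0.00165), and its differences ran from -0.0866 to 0.00165 without single arrays. RUNX2, also uncalled, was -0.0489 after quantile normalization, -0.023 after median centring and -0.128 with letter as a fixed block, and ran from -0.0068 (without shNS replicate 2) to 0.0842 with arrays left out. Of 51 other named genes, each run under 17 or 18 settings, the single one to change sign was RUNX2. Leaving arrays out cannot turn the sign of a gene whose arms lie wholly apart. Settings that alter only the spread leave the difference as it is. The sign was therefore largely fixed in advance. The calls were not: 48 of the 51 lost theirs with only the 6 arrays of 0 hr. Without shRUNX1 replicate 1 or 3, 45 and 44 lost it, and without shNS replicate 1 or 2, 43 and 44. The number of arrays, 3 per group, limits what can be called.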

Other observations

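LINC00458, a long noncoding RNA that the rule for named genes leaves out, had a wider difference at 0 hr than any other gene called higher except BNIP3 and MAGEH1. It gave 8.11, 7.19 and 8.43 on the shRUNX1 arrays, against 6.05, 6.47 and 6.95 on the shNS arrays (log2 difference 1.42, SE 0.26, adjusted p = 0.0191 from limma), with no overlap. At 8, 24 and 72 hr its difference was 0.27, 0.68 and 0.0014. XIST, the noncoding RNA that silences an X chromosome, is also left out by that rule and was called higher (log2 difference 1.37, SE 0.32, adjusted p = 0.032 from limma), without overlap, with differences of 1.41, 0.90 and 0.48 at 8, 24 and 72 hr.

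HMGN2, a nucleosome-binding protein, was called lower at -0.84 (SE 0.20, adjusted p = 0.0325, limma), together with its pseudogenes HMGN2P15 (-0.83), HMGN2P17 (-0.78) and HMGN2P11 (-0.77), whose probes may not be separable from those of HMGN2. CDK6, a kinase of the G1 phase, was called lower at -0.99 (SE 0.26, adjusted p = 0.0477), with overlapping arms. EXO1, a nuclease of mismatch repair and recombination, gave 9.76, 10.24 and 9.91 on the shRUNX1 arrays, against 10.71, 10.87 and 10.62 on the shNS arrays (-0.77, SE 0.12, adjusted p = 0.0103). All of these were chosen after their values were seen.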
